A study of Arabidopsis thaliana with 6 samples.

Results

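Root tips of Arabidopsis thaliana seedlings treated with gibberellin (GA) for 120 min were compared with untreated root tips at 120 min. The 2 treated arrays carry AtGA120 in their titles and the 2 untreated arrays AtCON120, and these 4 arrays were chosen by title from the 6 Affymetrix ATH1 arrays of the series. The remaining 2 arrays, AtCON0, hold untreated root tips at 0 min and were used to check each difference. All seedlings were 7 days old and in the Col-0 background, and were grown on sucrose medium in continuous light. The treated samples were labelled with the treatment GA, 120 min, the source name GA2oxOE1I and the genetic variation "gene knock out". The untreated samples at 120 min and at 0 min were labelled Col-0 and untreated, with no such entry. The GA dose, the promoter behind the line named in the source and the number of plants per sample were not given in the sources used here. The treatment and the plant line therefore cannot be told apart in any difference below.

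Gibberellin is a diterpenoid growth hormone. Its receptors, the GID1 proteins, bind the hormone and then DELLA proteins, which repress growth genes. The F-box protein SLY1 marks the bound DELLA proteins for breakdown by the proteasome, and this relieves the repression. In the root, GA is known to promote cell division in the meristem and cell elongation above it, and the endodermis is a main site of its action.

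Values are MAS5 signals, which are linear intensities of a probe set, and differences are in log2(signal + 16), treated minus untreated, so that 1 stands for a 2-fold difference. On this scale the differences of dim genes are understated. Treated replicate 1 stood apart from the other 5 arrays in RNA quality. The ratio of actin signal between the 3' and the 5' probe set, which grows as RNA breaks down, was 14.8 there and 2.52 on treated replicate 2, against 4.44 and 2.22 for untreated roots at 120 min and 4.94 and 2.43 for those at 0 min. The log2 values of the 2 treated arrays correlated at 0.907 across 13647 tested probe sets, those of the untreated arrays at 120 min at 0.945 and those at 0 min at 0.958, and probe sets are not independent replicates. The labels do not say whether replicates are separate cultures, and p-values then reflect only the spread among arrays, which may be technical. The medians of gene groups below are therefore also given on each treated array alone, and single genes by both treated arrays.

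The tissue label was checked on marker genes. EXPA7 and EXPA18, expansins of root hair cells, read 175 to 277 on the treated arrays, 274 to 319 in untreated roots at 120 min and 266 to 391 in those at 0 min. AGL42, LHW and JKD, genes of the root stem cell niche, vascular initials and ground tissue, also lay above the signal filter, while BBM and CR4 lay below it. Of genes of green tissue, RCA (Rubisco activase) read 109 and 202 on treated arrays, 137.5 and 339 in untreated roots at 120 min, and 156 and 218.5 in those at 0 min. Of 3 pollen and floral genes with a named probe set, AGL104 read at most 1.52 on treated, 5.62 on untreated 120 min and 1.79 on untreated 0 min arrays. AtVEX1, also below the filter, read 25.7 and 21.2 on treated, 1.85 and 16.3 on untreated 120 min and 16.8 and 1.25 on untreated 0 min arrays. AGL65, above the filter, read 29.6 and 29.4 on treated, 16.8 and 23.3 on untreated 120 min and 38.1 and 15.1 on untreated 0 min arrays. The part of such cells in the results below was not tested. No endodermis, pericycle or seed storage marker of the lists had a named probe set. In such whole root tips, fewer cells of a type and less RNA per cell cannot be told apart.

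The comparison asked which transcripts differed after 120 min of GA, as the series title states its subject. No gene passed the test, so the genes below are described by their values. Probe sets at least 2-fold apart without overlap were dim, with a median signal over the 6 arrays of 36.8 for those higher and 44.2 for those lower in treated roots. In all 14 of those lower, treated replicate 1 was below treated replicate 2. Limma called 0 of 13647 probe sets at an adjusted p of 0.05 (lowest adjusted p = 0.999), and 164 (1.2% of those tested) had an unadjusted p under 0.05, 86 with higher and 78 with lower values in treated roots. The median 95% confidence interval reached 0.64 to either side of a difference.

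The 2 treated arrays lay above both untreated arrays at 120 min for 1570 probe sets (11.5%) and below both for 1414 (10.4%). The median difference of these probe sets was 0.32 and -0.30. Across all tested probe sets the median difference was 0.0093, 51.4% of differences were above 0, and 93.3% lay within 0.5. Differences of at least 2-fold without overlap were found for 14 probe sets with higher values (0.103%) and for 14 with lower values (0.103%) in treated roots. This split depended on the scaling: it was 6 higher and 22 lower after quantile normalization, and 5 and 26 after centring each array on its median. The count of 28 became 112 without treated replicate 1 and 576 without treated replicate 2. It became 236 without untreated replicate 1 and 126 without untreated replicate 2 at 120 min. In each case 1 array was left in a group, and why these counts differ was not tested.

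**Figure D1:**
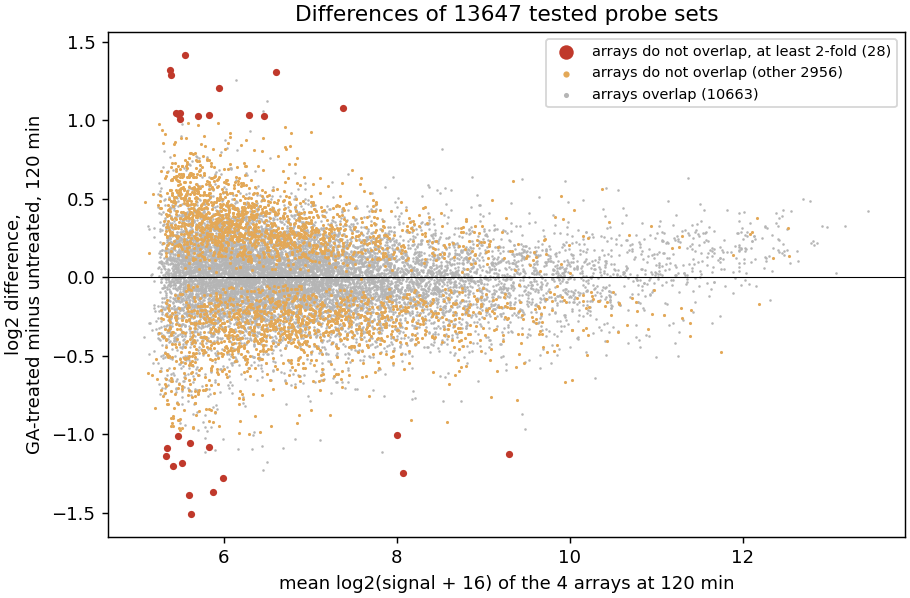
Difference of each of 13647 tested probe sets (vertical axis, log2, treated minus untreated at 120 min) against its mean log2(signal + 16) over the 4 arrays at 120 min (horizontal axis). The 28 probe sets at least 2-fold apart without overlap (red) lie mostly at the dim end on the left, 14 above and 14 below 0.

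The arrays at 0 min were set beside these values. The 0 min and the 120 min comparisons share the treated arrays, so the values are given side by side only. The probe sets below were also chosen by their values on the untreated arrays at 120 min. A shift of those arrays from the 0 min arrays is therefore in part set by this choice. Of the 1570 probe sets above both untreated arrays at 120 min, 639 (40.7%) also lay above both arrays at 0 min, which is 4.68% of all tested probe sets. For 598 of the 1570 (which may include some of the 639), the untreated arrays at 120 min lay below both arrays at 0 min. In the lower set the reverse, with the 120 min pair above both 0 min arrays, held for 381 of the 1414. The matching shares over all tested probe sets were not counted, so no conclusion is drawn from either count. The median difference of the 1570 was 0.32 from untreated roots at 120 min and 0.19 from untreated roots at 0 min, and untreated roots at 120 min differed from those at 0 min by -0.15. Of the 1414 probe sets below both untreated arrays at 120 min, 700 (49.5%) also lay below both arrays at 0 min, or 5.13% of all tested. Their median difference was -0.30 from untreated roots at 120 min and -0.24 from untreated roots at 0 min, and untreated roots at 120 min differed from those at 0 min by 0.073. Against the 0 min arrays limma called 0 probe sets, with 350 (2.56%) at an unadjusted p under 0.05. Between untreated roots at 120 and 0 min it called 0, with 158 (1.16%).

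Genes of GA perception did not show a shared direction on the 2 treated arrays. All 5 tested genes had lower mean log2 values in treated roots, with a median difference of -0.11. This median was -0.52 on treated replicate 1 alone and 0.29 on treated replicate 2 alone. GID1B, a GA receptor, read 4.87 and 214 after GA, against 101 and 73.0 in the untreated samples at 120 min, and 88.9 and 164 in those at 0 min. The treated arrays thus held both the lowest and the highest of the 6 signals. GID1A, another receptor, read 19.7 and 60.9 on the treated arrays, against 46.4 and 47.2 at 120 min and 37.2 and 69.4 at 0 min. For SLY1 the treated arrays read 79.2 and 162, against 136 and 107 in untreated roots at 120 min and 159 and 144 at 0 min. For GID1A and SLY1, as for GID1B, treated replicate 1 was below and treated replicate 2 above both untreated arrays at 120 min. SLY1 differed by -0.071 on the log2 scale. The O-linked glycosyltransferases SPY and SEC modify DELLA proteins. SPY read 80.5 and 124 in treated, 106 and 113 in untreated 120 min and 93.0 and 130 in untreated 0 min roots, and SEC read 74.4 and 104, 93.7 and 84.9, and 104 and 110 in that order. SPY differed by -0.11 and SEC by -0.015.

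The third receptor gene and the second F-box gene did not reach the signal filter and have no test. GID1C read 7.48 and 23.8 in treated roots, against 24.1 and 30.0 in untreated roots at 120 min and 29.4 and 25.3 at 0 min. SLY2 read 18.5 and 32.4 in treated roots, against 19.9 and 18.2 at 120 min and 34.3 and 25.6 at 0 min. XERICO, a RING-type zinc finger gene known as a target of DELLA proteins, read 134 and 197 in treated roots, against 219 and 130 in untreated roots at 120 min and 246 and 242 at 0 min. Its treated and untreated arrays at 120 min overlapped, and all 4 lay at 219 or below, under both arrays at 0 min. No gene of GA synthesis or inactivation and no DELLA gene had a probe set under its own symbol in the annotation used here, so the hormone level and the line were not checked on them.

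**Figure D2:**
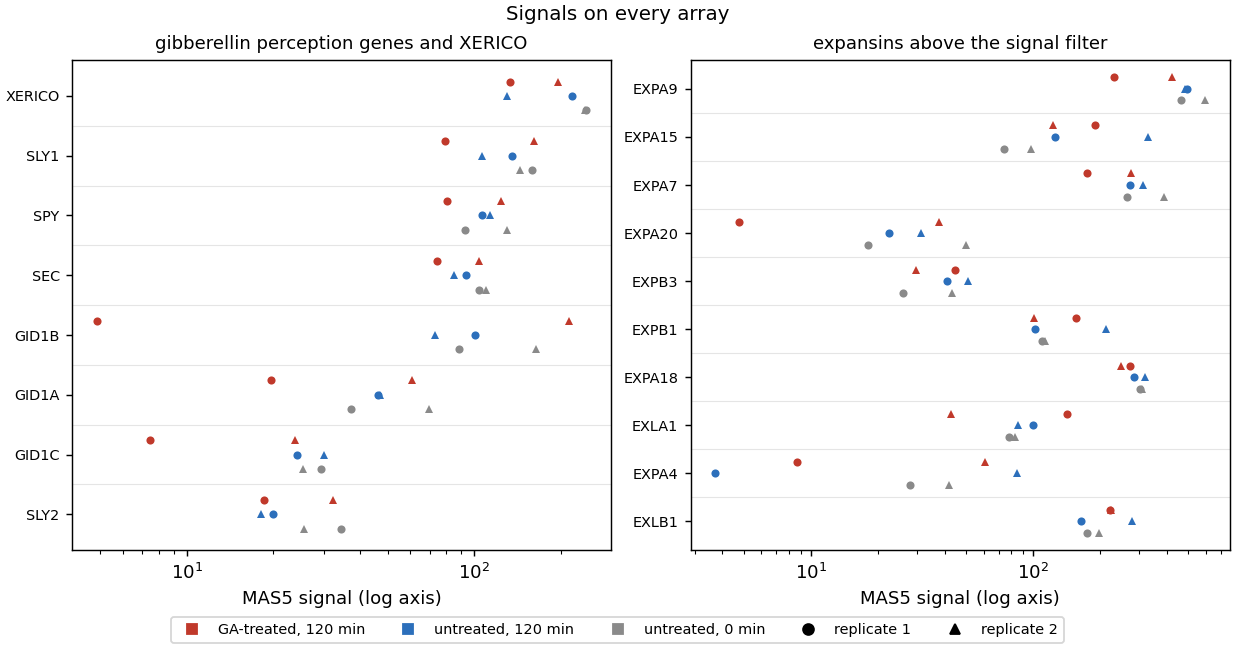
MAS5 signal on each array (horizontal log axis) of GA perception genes and XERICO (left) and of the 10 tested expansins (right), with treated roots above untreated roots at 120 min and 0 min, circles for replicate 1 and triangles for replicate 2. GID1B spans 4.87 to 214 on the treated arrays, and EXPA9 is the expansin whose treated arrays, at 232 and 421, lie farthest below the untreated ones.

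Expansins, proteins that loosen the cell wall so that cells can enlarge, had mostly lower mean values in treated roots. Of 10 tested genes 9 were lower and 1 higher, with a median difference of -0.22, and 0 passed the test. The treated arrays lay below both untreated arrays at 120 min for 2 of the 10, against 10.4% of all tested probe sets. EXPA9 read 232 and 421 in treated roots, against 495 and 486 in untreated roots at 120 min and 465 and 596 at 0 min. It differed by -0.62 (95% confidence interval -1.30 to 0.057), and both treated arrays lay below all 4 untreated arrays. EXPA18 read 274 and 250 in treated roots, against 285.5 and 319 at 120 min and 304 and 309 at 0 min, also with the treated arrays lowest. The median over the 10 genes was -0.12 on treated replicate 1 alone and -0.23 on treated replicate 2 alone.

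Other wall genes did not share a direction. XTH enzymes, which cut and rejoin xyloglucan, had 3 of 8 tested genes higher and 5 lower (median -0.11, or -0.11 on treated replicate 1 alone and -0.27 on replicate 2 alone). XTH33 read 36.5 and 28.9 in treated roots, against 42.0 and 41.1 at 120 min and 45.8 and 38.6 at 0 min, so that the treated arrays were the lowest. XTH19 read 183 and 171 in treated roots, 189 and 205 in untreated roots at 120 min, and 117 and 116.5 at 0 min, so that all 4 arrays at 120 min lay above those at 0 min. GH9 enzymes, endoglucanases of the wall, had 4 of 6 genes higher and 2 lower (median 0.088), but the median was 0.41 on treated replicate 1 alone and -0.14 on treated replicate 2 alone. Among them GH9C3 read 79.5 and 53.1 in treated roots, against 34.4 and 28.5 in untreated roots at 120 min, but 62.9 and 53.4 at 0 min, where it overlapped the treated arrays. Of the cellulose synthesis genes, 3 of 8 were higher and 5 lower (median -0.044, or 0.053 and -0.087 on treated replicates 1 and 2 alone). CSLC12, of the family that makes the xyloglucan backbone, read 63.1 and 59.3 in treated roots, against 42.7 and 38.0 at 120 min and 47.7 and 58.5 at 0 min, and its treated arrays were above all others.

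The TBL family, whose members acetylate wall polysaccharides, had 10 of 18 genes higher and 8 lower (median 0.079, or 0.038 and -0.13 on treated replicates 1 and 2 alone). TBL32, needed for xylan acetylation, read 54.5 and 43.8 in treated roots, against 82.6 and 57.2 in untreated roots at 120 min and 84.6 and 75.7 at 0 min, with the treated arrays below all untreated ones. TBL30 read 94.9 and 69.9 in treated roots, against 58.8 and 31.6 at 120 min, with 37.7 and 70.4 at 0 min. SBT1.3, a subtilisin-like protease, read 73.0 and 63.2 in treated roots, against 39.9 and 32.4 at 120 min and 64.3 and 34.4 at 0 min. TBL30 and SBT1.3 thus lay above the untreated arrays at 120 min and overlapped those at 0 min. The class III peroxidase PRX72 (AT5G66390) read 278.5 and 287 in treated roots, against 312 and 440 at 120 min and 248 and 385.5 at 0 min.

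Of 8 tubulin and actin genes tested, 7 were lower and 1 was higher after GA, with a median of -0.12 that was -0.023 on treated replicate 1 alone and -0.14 on treated replicate 2 alone. TUB5, a beta-tubulin, read 323 and 494 in treated roots, against 495 and 497.5 in untreated roots at 120 min and 557 and 660 at 0 min, and TUA6, an alpha-tubulin, read 1918 and 1953, 2018 and 2076, and 2001 and 1849 in that order. Both were below the untreated arrays at 120 min, by 0.30 and by 0.080 in log2, and TUB5 was also below those at 0 min. Histone genes had 5 of 6 members higher, with a median of 0.11, but the sign was set by the array: it was 0.51 on treated replicate 1 alone and -0.22 on treated replicate 2 alone. The histone H2B gene HTB2 read 194 and 89.9 in treated roots, against 129 and 61.5 at 120 min and 96.7 and 83.7 at 0 min. In each of these groups the higher signal belonged to replicate 1. HTB2 was chosen after its values were seen.

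The Aurora kinases act in mitosis. AUR3 read 81.4 and 32.1 in treated roots, against 46.1 and 20.9 at 120 min and 41.6 and 58.6 at 0 min, and the treated arrays overlapped the untreated ones. All 3 Aurora genes had higher means in treated roots (median 0.20), while the median was 0.57 on treated replicate 1 alone and -0.040 on treated replicate 2 alone. KINESIN-12B, a motor of the phragmoplast that builds the new wall in dividing cells, read 56.6 and 30.0 in treated roots, against 18.7 and 25.4 at 120 min and 30.1 and 19.5 at 0 min. Its treated arrays were above the untreated arrays at 120 min, with a difference of 0.61, and overlapped those at 0 min. The actin-binding protein gene NET1A read 108.5 and 97.3 in treated roots, against 95.2 and 74.3 at 120 min, and 109 and 108 at 0 min.

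The 14 genes with the largest higher values without overlap differed by 0.92 to 1.32. All 14 carry only a locus name in the tables used here, so no function is given for them. AT4G04750 read 61.5 and 39.6 in treated roots, against 3.28 and 19.7 in untreated roots at 120 min and 34.2 and 13.6 at 0 min, a difference of 1.32. AT2G25510 was the brightest of those at least 2-fold higher, with 286 and 176 in treated roots, against 142 and 66.2 at 120 min and 129 and 55.6 at 0 min. For both genes the 2 treated arrays were the highest of the 6. AT5G39580 read 62.2 and 186 in treated roots, against 45.4 and 46.2 at 120 min and 32.7 and 20.6 at 0 min, and its difference was larger from the 0 min roots, at 1.57, than from the 120 min roots, at 1.03. AT1G32580 read 130 and 139 in treated roots, against 74.5 and 53.9 at 120 min and 120 and 87.8 at 0 min. AT4G17310 read 75.0 and 78.0 in treated roots, against 41.2 and 25.9 at 120 min and 29.8 and 42.5 at 0 min. The treated arrays of both genes nearly coincided, and for AT1G32580 the 0 min arrays lay nearer to them than the 120 min arrays did.

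Further genes of this set were dimmer. AT3G52860 read 33.2 and 64.3 in treated roots, against 25.8 and 6.06 at 120 min and 25.1 and 22.4 at 0 min. AT2G18890 read 41.7 and 54.0 in treated roots, against 16.9 and 13.0 at 120 min and 37.5 and 26.8 at 0 min. In both, the treated arrays were above all 4 untreated arrays. AT5G12240, AT2G19180 and AT1G05320 overlapped the 0 min arrays, and for AT2G19180 the highest of all 6 signals was the 63.4 of untreated replicate 2 at 0 min. The others were AT3G53470, AT5G35660, AT1G50910 and AT4G24710, by 1.04, 1.01, 0.97 and 0.92. Of the 14 genes, 11 were above all 4 untreated arrays, as were 40.7% of the 1570 probe sets above both untreated arrays at 120 min. The 14 were picked by their size on the same treated arrays, so the 11 are no separate check. The median difference of the 14 was 1.02 from untreated roots at 120 min and 0.56 from untreated roots at 0 min, and untreated roots at 120 min differed from those at 0 min by -0.47. Their differences ran from 0.34 to 1.56 on treated replicate 1 alone and from 0.48 to 1.71 on treated replicate 2 alone.

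The 14 genes with the largest lower values without overlap differed by -1.25 to -0.92. In each of them treated replicate 1 was the lower of the treated arrays. On treated replicate 1 alone their differences ran from -2.30 to -1.28, and on treated replicate 2 alone from -0.83 to -0.066. AT2G07708 read 67.9 and 348 in treated roots, against 357 and 444 in untreated roots at 120 min and 679 and 537 at 0 min. AT2G21860 read 4.41 and 22.7 in treated roots, against 59.6 and 39.4 at 120 min and 41.3 and 53.4 at 0 min. HAT3.1, a homeobox protein with a PHD finger, read 11.85 and 38.7 in treated roots, against 59.2 and 74.5 at 120 min and 52.0 and 77.0 at 0 min. In all 3 genes both treated arrays were the lowest of the 6. AT2G23700 read 12.9 and 23.5 in treated roots, against 57.1 and 51.6 at 120 min and 75.6 and 47.4 at 0 min. AT3G54580 was among the brightest, with 191 and 357 in treated roots, against 441 and 588 at 120 min and 438 and 583 at 0 min. Its untreated values at both times were close on each replicate number, and the treated arrays lay below all 4.

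The plastid genes rpl16 and rpl14, for ribosomal proteins of the plastid, also belonged to this set. For some of the others the low mean came from treated replicate 1. AT4G00990 read 7.61 and 61.1 in treated roots, against 66.8 and 62.8 at 120 min and 96.7 and 83.4 at 0 min. AT2G41000 read 4.41 and 46.9 in treated roots, against 58.0 and 49.1 at 120 min and 42.5 and 42.1 at 0 min. In both, the second treated array lay close to the untreated ones at 120 min. For AT4G00990 it lay well below both arrays at 0 min. The remaining members were AT1G65020, AT2G46910, AT1G79080, AT5G51180 and AT1G55820, by -0.99, -0.96, -0.95, -0.94 and -0.93. Of the 14 genes, 10 lay below all 4 untreated arrays, and rpl16, AT1G65020, AT2G41000 and AT1G79080 overlapped the 0 min arrays. Of the 1414 probe sets below both untreated arrays at 120 min, 49.5% lay below all 4. The 14 were picked by size on the same treated arrays, so the 10 are no separate check. The median of the 14 was -0.96 from untreated roots at 120 min and -0.91 from untreated roots at 0 min.

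**Figure D3:**
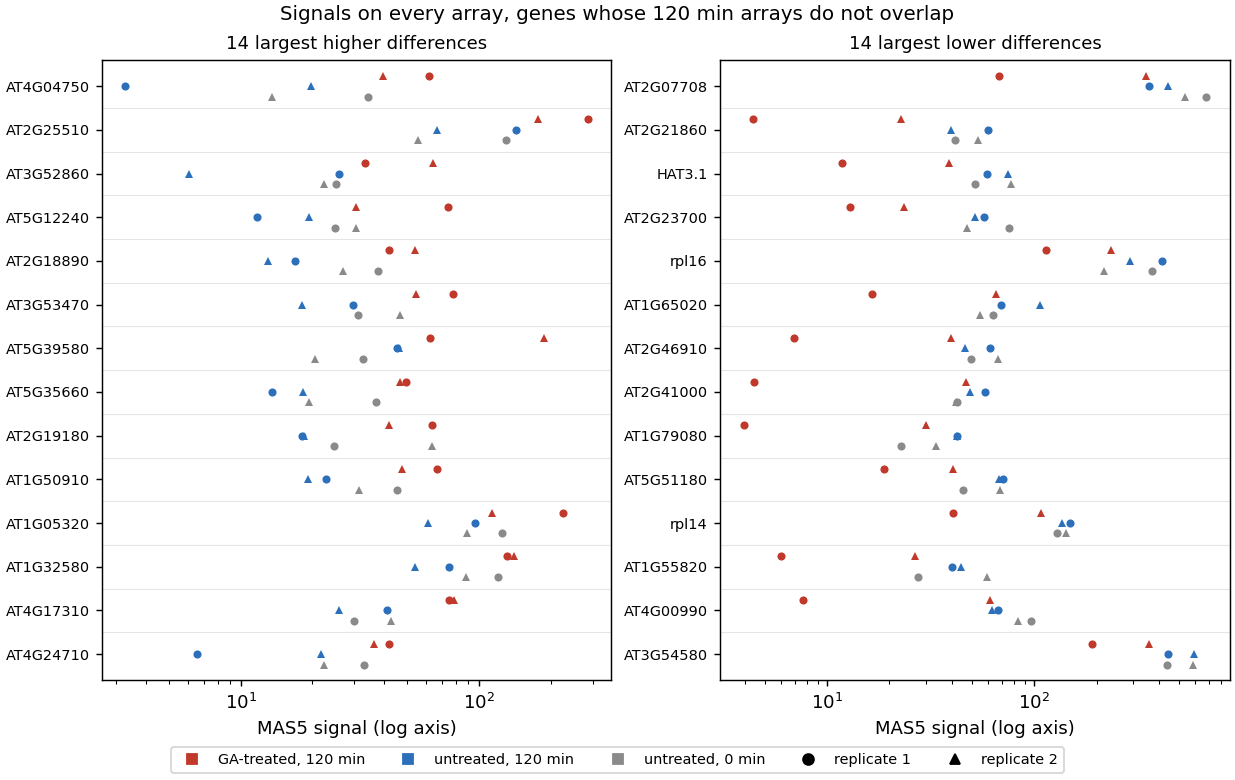
MAS5 signal on each array (horizontal log axis) of the 14 genes with the largest higher (left) and the 14 with the largest lower (right) values without overlap at 120 min, with treated roots above untreated roots at 120 min and 0 min, circles for replicate 1 and triangles for replicate 2. On the right, treated replicate 1 is the lowest of the 6 points for each of the 14 genes.

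Among transcription factors, both treated arrays lay above all 4 untreated arrays for 2 of 6 tested WRKY genes and 1 of 6 MADS-box genes. They lay below all 4 for 1 of 3 homeobox genes, HAT3.1, and on neither side for any tested MYB, bHLH or bZIP gene. Of all tested probe sets, 4.68% lay above and 5.13% below all 4. Of the WRKY factors, which act in defence and stress responses, 4 of 6 tested genes were higher and 2 lower in treated roots. WRKY22 read 47.4 and 62.5 in treated roots, against 27.9 and 22.9 in untreated roots at 120 min and 38.2 and 41.1 at 0 min. WRKY53 read 48.2 and 85.0 in treated roots, against 43.5 and 43.0 at 120 min and 37.1 and 32.0 at 0 min. Both genes had their highest 2 signals on the treated arrays, with differences of 0.77 and 0.44. The median of the 6 was 0.12, or 0.51 on treated replicate 2 alone and 0.0062 on treated replicate 1 alone. JKD (JACKDAW), a zinc finger protein of the root ground tissue, read 71.1 and 66.7 in treated roots, against 28.9 and 54.8 at 120 min and 32.7 and 39.1 at 0 min, a difference of 0.59 (95% confidence interval -0.082 to 1.26). AGL26, a MADS-box gene, read 248 and 217 in treated roots, against 170 and 168 at 120 min and 207.5 and 184 at 0 min, while its other probe set differed by 0.032. TRY, an R3 MYB protein of epidermal patterning, read 70.9 and 30.4 in treated roots, against 36.4 and 17.6 at 120 min and 26.6 and 10.9 at 0 min. Within each replicate number TRY was higher in treated roots, but the arrays overlapped. The differences within the 2 replicate numbers had the same sign in 46.6% of all tested probe sets.

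Hormone genes beyond GA were sparsely named. Of the auxin genes, 4 of 8 tested were higher and 4 lower (median 0.050, or -0.12 and 0.13 on treated replicates 1 and 2 alone). YUC2, an enzyme of auxin synthesis, read 49.3 and 41.6 in treated roots, against 21.6 and 41.0 in untreated roots at 120 min and 30.1 and 35.1 at 0 min, so that the treated arrays were the highest, the second by less than 1 signal unit. The named genes of the cytokinin, jasmonate and brassinosteroid pathways were all below the signal filter. The peptide gene RALFL32 had little spread. It read 651 and 659 in treated roots, against 579 and 585 at 120 min and 531 and 559 at 0 min, and the treated arrays were the highest by a difference of 0.17 from the 120 min roots.

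Glycosyltransferases of the UGT family, which attach sugars to hormones and phenolic compounds, split both ways. Of 24 tested genes 8 were higher and 16 lower (median -0.21), and 5 lay above and 5 below both untreated arrays at 120 min (20.8% each, against 11.5% above and 10.4% below of all tested probe sets). Treated replicate 1 was below treated replicate 2 in 20 of the 24, and the median was -0.58 on treated replicate 1 alone and 0.19 on treated replicate 2 alone. UGT76C2, which glucosylates cytokinins, read 9.64 and 20.6 in treated roots, against 33.0 and 42.7 in untreated roots at 120 min and 22.3 and 41.7 at 0 min. UGT72E3, which glucosylates monolignols, read 3.43 and 33.9 in treated roots, against 41.7 and 41.9 at 120 min and 29.4 and 62.4 at 0 min. UGT76C2 was below all untreated arrays and UGT72E3 overlapped those at 0 min. UGT84A4, of a group that forms glucose esters of hydroxycinnamic acids, read 145 and 132 in treated roots, against 90.5 and 100.4 at 120 min and 70.6 and 81.4 at 0 min. UGT80B1, a sterol glucosyltransferase, read 88.5 and 58.3 in treated roots, against 38.7 and 42.5 at 120 min and 53.3 and 39.2 at 0 min. For UGT84A4 and UGT80B1 both treated arrays were above all 4 untreated arrays, by 0.47 and 0.64 over the 120 min roots, and these 2 genes were chosen after their values were seen.

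Other metabolic genes gave values on both sides. CCOAMT, of the caffeoyl-CoA methyltransferase family of lignin synthesis, read 24.1 and 59.7 in treated roots, against 18.4 and 18.5 in untreated roots at 120 min and 21.1 and 20.9 at 0 min. Its 4 untreated signals were nearly equal, and both treated arrays lay above them, by 0.68 over the 120 min roots. The glutathione transferase GSTU16 read 43.0 and 34.2 in treated roots, against 27.4 and 15.4 at 120 min and 31.8 and 34.4 at 0 min, where it overlapped. The cytosolic isocitrate dehydrogenase gene cICDH was among the brightest genes named, with 5617 and 4833 in treated roots, against 4447 and 3620 at 120 min and 4737 and 3961 at 0 min. Both treated arrays were the highest, and in each of the 3 groups replicate 1 was above replicate 2. The glucosinolate transporter gene GTR2 read 47.2 and 170 in treated roots, against 86.9 and 209 at 120 min and 137 and 177 at 0 min, with replicate 1 below replicate 2 in each group. The dehydrin LTI30 read 260 and 625.5 in treated roots, against 389.5 and 762 at 120 min and 385 and 624 at 0 min, and its arrays overlapped.

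Genes of the plastid genome had the lowest median among groups with more than 5 tested genes. Of 53 tested genes, 15 were higher and 38 lower after GA, with a median of -0.32, against 0.0093 over all tested probe sets, and 0 passed the test. On treated replicate 1 alone the median was -0.62, and on treated replicate 2 alone it was -0.078. Both treated arrays lay below both untreated arrays at 120 min for 11 genes (20.8%, against 10.4% of all tested probe sets). Of these 11, 7 were also below both arrays at 0 min, while 5.13% of all tested probe sets lay below all 4 untreated arrays. Both treated arrays lay above both untreated arrays at 120 min for 0 of the 53 genes, against 11.5% of all tested probe sets. Plastid transcripts share 1 genome and in part 1 polymerase, so these genes are not independent. The 3' to 5' ratios of nuclear actin, given above, moved with treated replicate 1, and their part in these values was not tested.

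By role, the 13 genes of ribosomal proteins had 10 members lower, with a median of -0.32, or -0.77 on treated replicate 1 alone and -0.18 on treated replicate 2 alone. The other roles were not lower on both treated arrays, apart from the NDH complex, where 3 of 5 genes were lower (median -0.19, or -0.017 on replicate 1 alone and -0.16 on replicate 2 alone). Of the 16 genes of the photosystems 11 were lower (median -0.25), with -0.59 on treated replicate 1 alone and 0.19 on treated replicate 2 alone. Of the 5 genes of ATP synthase 4 were lower (median -0.36), with -0.89 on replicate 1 alone and 0.14 on replicate 2 alone. The 3 genes of the RNA polymerase had 2 lower (median -0.20, or -0.43 and 0.013 on replicates 1 and 2 alone), and the 3 of the cytochrome b6f complex had 1 lower (median 0.19, or 0.066 and -0.14). The ribosomal protein gene rpl16 read 114 and 234 in treated roots, against 412 and 289 in untreated roots at 120 min and 370 and 218 at 0 min, where it overlapped. Another ribosomal protein gene, rpl14, read 40.3 and 108 in treated roots, against 150 and 137 at 120 min and 129 and 142 at 0 min. The large subunit of Rubisco, rbcL, read 11.6 and 45.9 in treated roots, against 59.9 and 64 at 120 min and 81.0 and 59.3 at 0 min. For rpl14 and rbcL the treated arrays were below all 4 untreated arrays, by 0.93 and 0.92 from the 120 min roots. The largest difference of all 53, -1.04 for the carboxylase subunit accD, came from treated arrays that disagreed. The gene accD read 25.8 and 205 in treated roots, against 163 and 202 at 120 min and 221 and 256 at 0 min, and it was chosen after its values were seen. At the other end ndhC read 343.5 and 150 in treated roots, against 206 and 134 at 120 min and 141 and 177 at 0 min, also chosen after its values were seen.

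**Figure D4:**
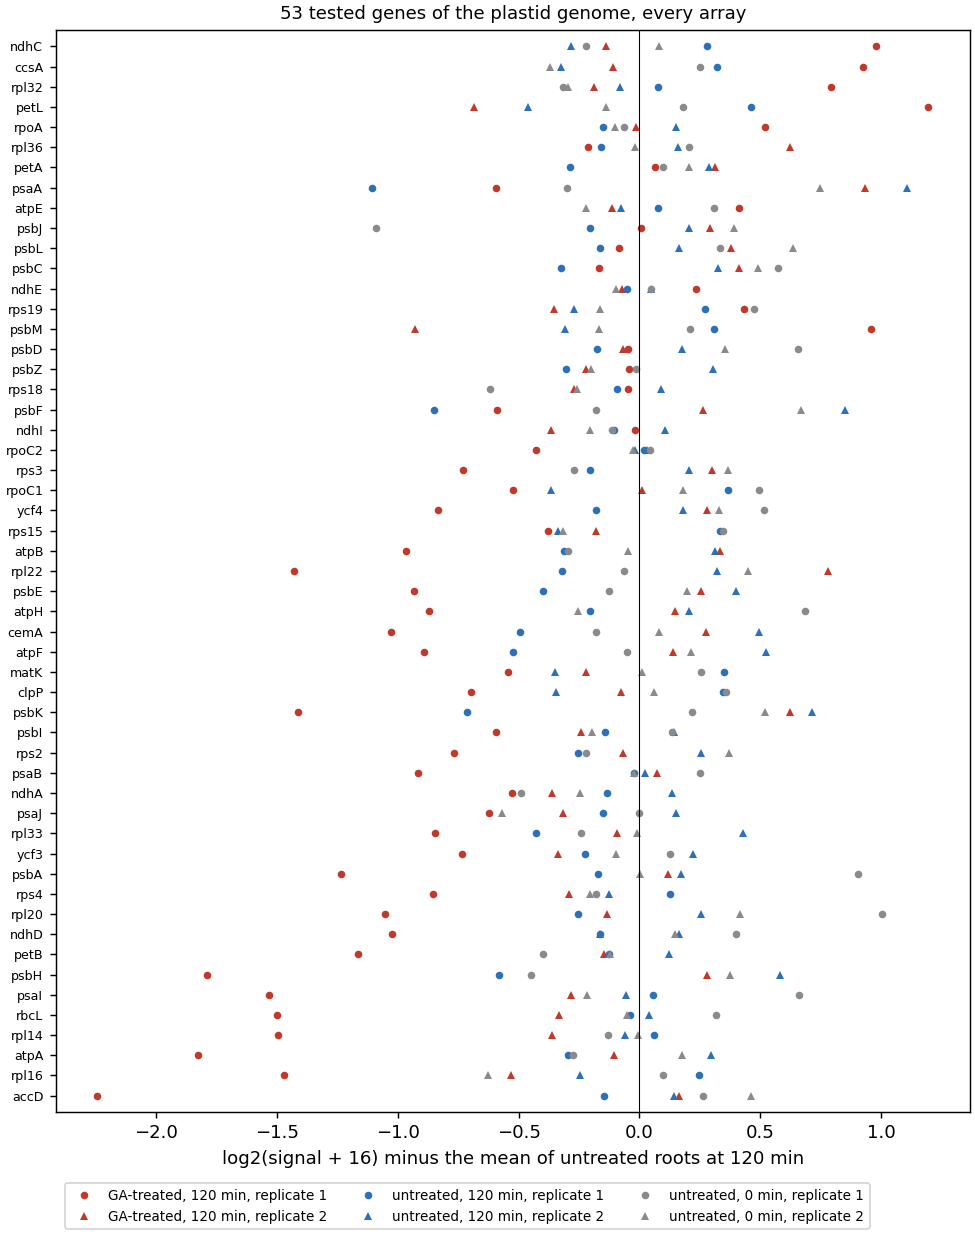
Log2(signal + 16) of each of 53 tested genes of the plastid genome on every array, minus the mean of the 2 untreated arrays at 120 min, ordered by the difference of the treated roots. Treated replicate 1 (red circles) spreads from below -2 to above 1. It lies below both untreated arrays at 120 min for 34 genes and above both for 9. Treated replicate 2 (red triangles) lies below both for 19 genes and above both for 12. The median of the 53 genes is -0.62 on treated replicate 1 and -0.078 on treated replicate 2.

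Nuclear photosynthesis genes had 7 of 9 members lower and 2 higher in treated roots (median -0.20, or -0.092 and -0.27 on treated replicates 1 and 2 alone), and the arrays of all 9 overlapped. RCA, with the signals given above, differed by -0.50, and untreated replicate 2 at 120 min, at 339, was the highest of its 6 arrays. Mitochondrion-encoded genes had 5 of 10 members higher and 5 lower, with a median of 0.0052, or 0.057 and -0.011 on treated replicates 1 and 2 alone. Treated roots differed from untreated roots at 0 min by a median of -0.37, and untreated roots at 120 min differed from those at 0 min by -0.32. The gene ccb382, for a protein of cytochrome c maturation, read 201 and 688.5 in treated roots, against 591 and 613 at 120 min and 901 and 876 at 0 min, so that all 4 arrays at 120 min were below those at 0 min.

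Genes of protein turnover had small differences in both directions. Of 12 tested ubiquitin-conjugating enzymes 8 were higher and 4 lower (median 0.080, or 0.11 on treated replicate 1 alone and 0.062 on replicate 2 alone), and 3 of the 12 lay above both untreated arrays at 120 min, as did 11.5% of all tested probe sets. UBC22 read 592 and 516 in treated roots, against 466 and 411 in untreated roots at 120 min and 505 and 487 at 0 min. UBC22 was the gene of these 3 that was also above both arrays at 0 min. Of 12 ubiquitin-specific proteases, which remove ubiquitin, 7 were higher and 5 lower (median 0.094, or 0.18 and 0.037 on treated replicates 1 and 2 alone). Of these 12, 4 lay above (33.3%) and 2 below (16.7%) both untreated arrays at 120 min, against 11.5% and 10.4% of all tested probe sets. UBP15, known to promote cell proliferation in leaves, read 146 and 106 in treated roots, against 89.1 and 88.8 at 120 min and 100.5 and 85.2 at 0 min. UBP19 read 118 and 90.0 in treated roots, against 64 and 65.3 at 120 min, and 116 and 46.8 at 0 min. UBP15 lay above all untreated arrays, and UBP19 overlapped those at 0 min. Of 5 PUB ubiquitin ligases 1 was higher and 4 were lower (median -0.097, or 0.054 and -0.11 on treated replicates 1 and 2 alone). Both tested proteasome subunit genes had lower means (median -0.12, or 0.021 and -0.26). Autophagy genes had 7 of 11 members higher, with a median of 0.022 that was 0.19 on treated replicate 1 alone and -0.053 on replicate 2 alone. Among them was ATG8C, a protein that coats autophagosomes, with 233 and 194.5 in treated roots, against 181 and 192 at 120 min and 163 and 177 at 0 min, and so above all untreated arrays.

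Of 29 membrane traffic genes 19 were lower and 10 higher (median -0.080). The sign depended on the array, with a median of 0.044 on treated replicate 1 alone and -0.078 on treated replicate 2 alone. PRA1.B1, of a family that binds Rab GTPases, read 251 and 220.5 in treated roots, against 271 and 311.5 in untreated roots at 120 min and 254 and 278 at 0 min. SNF7.2, a subunit of the ESCRT-III complex that sorts membrane proteins, read 124 and 158 in treated roots, against 205 and 188 at 120 min and 102 and 183 at 0 min. PRA1.B1 was lowest on the treated arrays, by a few signal units on replicate 1, and SNF7.2 overlapped the 0 min arrays. RNA polymerase subunits had 8 of 11 members higher (median 0.15), with 0.25 on treated replicate 1 alone and 0.012 on replicate 2 alone. Splicing factors had 8 of 13 higher (median 0.034), with 0.16 on replicate 1 alone and -0.079 on replicate 2 alone. The splicing factor gene ATU2AF65A read 202.5 and 202 in treated roots, against 171 and 140 at 120 min, and 135 and 215 at 0 min.

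Over all gene groups, 77 lists held 783 genes with a named probe set, of which 470 were tested and 0 passed. The arrays at 120 min did not overlap for 42 of the 470 with higher values (8.94%) and 47 with lower values (10.0%), beside 11.5% and 10.4% of all tested probe sets. Medians ran from -0.34 in the NPF transporters, with 5 genes (-0.40 and 0.019 on treated replicates 1 and 2 alone), to 0.29 in the MYB factors, with 3 genes (0.14 and 0.21). In 29 of the 51 groups with at least 3 tested genes the median had opposite signs on the 2 treated arrays. It was below 0 on both in 10 groups, expansins, tubulins and actins, tetraspanins and nuclear photosynthesis genes among them, and above 0 on both in 12 groups, the ubiquitin-conjugating enzymes, the ubiquitin-specific proteases and the NET actin-binding proteins among them.

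**Figure D5:**
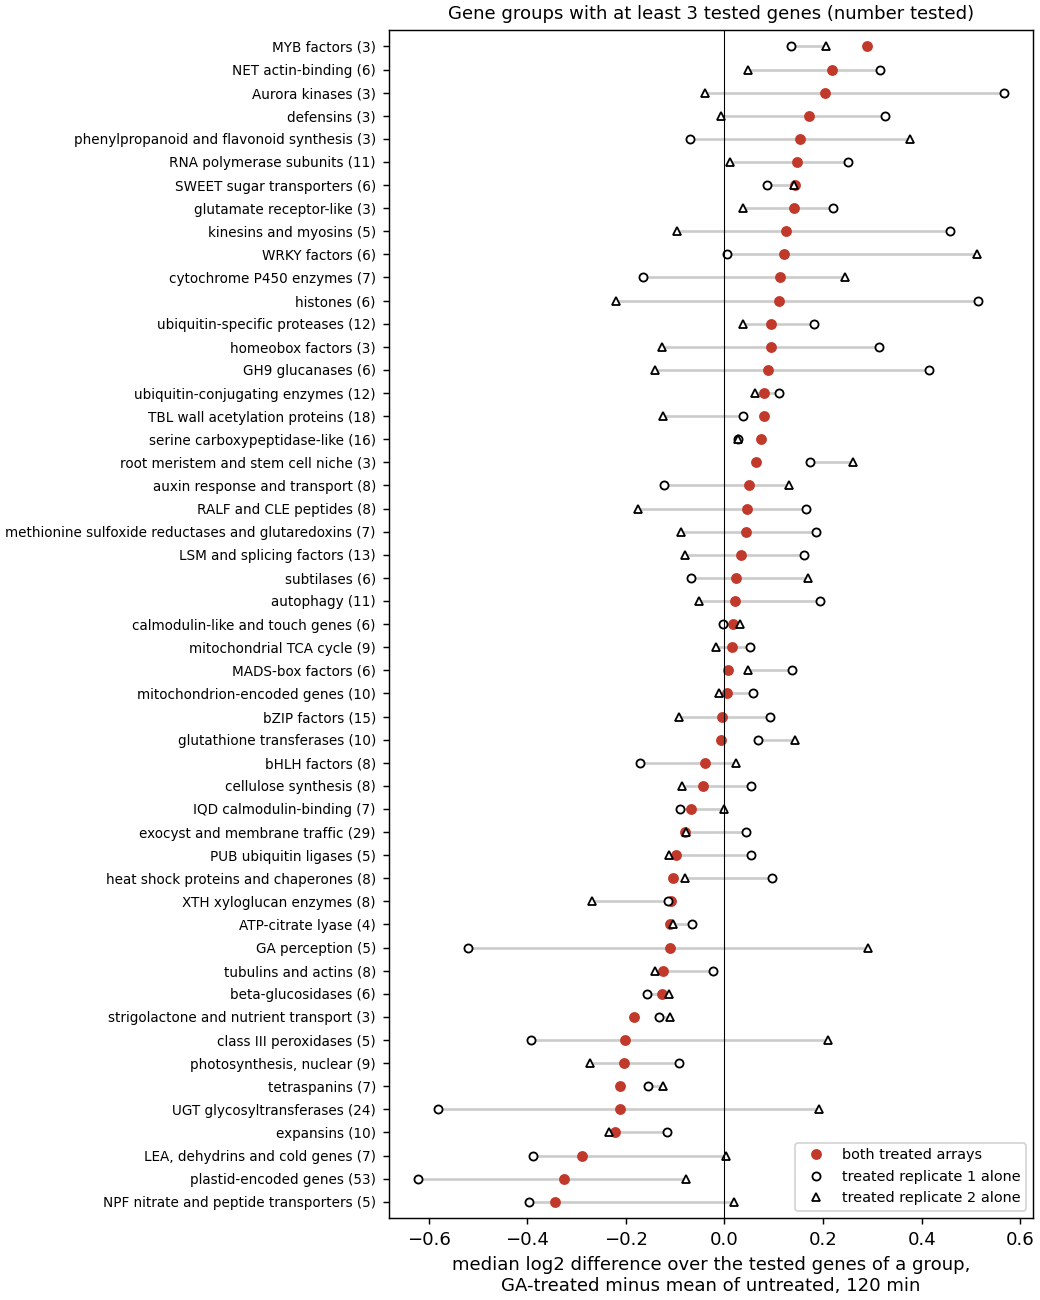
Median log2 difference (treated minus the mean of untreated roots at 120 min) over the tested genes of each of 51 gene groups, with both treated arrays (red), treated replicate 1 alone (open circles) and treated replicate 2 alone (open triangles), and the number of tested genes in brackets. The open symbols of the UGT group lie at -0.58 and 0.19 and those of the expansins at -0.12 and -0.23.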

How the data were processed

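Transcript levels were measured in root tips on 6 ATH1 arrays, 2 per group, and the titles gave each sample's group and replicate number. Total RNA was labelled with biotin in a one-cycle protocol, per the labels. The submitters' processing notes list MAS5 and GCOS and no versions. The deposited values are linear MAS5 intensity values per probe set, whose mean without the lowest and highest 2% was 100.0 on every array. A genome build was not given in the sources used here.

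Of 22810 probe sets, 64 array controls were left out. The other 22746 were taken to log2(signal + 16), and 13647 whose mean over 6 arrays was above the 40th percentile (signal 24.4) were tested with limma 3.58.1 in R 4.3.3 (lmFit and eBayes with a mean-variance trend, all 3 groups in 1 fit, two-sided, Benjamini-Hochberg threshold 0.05). The fit had 3 residual and 5.80 prior degrees of freedom. It was also run on simulated data with independent noise and, for each probe set, the same spread in all 3 groups. On the real arrays the spread differed between groups and same-numbered arrays deviated together. The simulated run therefore does not check the counts given here. The number of arrays limits the precision. Names came from the platform annotation, with symbols updated from RefSeq (TAIR10.1): 13513 probe sets matched 1 gene, 503 several and 8730 are unnamed here, and 13436 of the 13513 were found in the RefSeq table.

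The comparison and the 77 gene lists were chosen with earlier results of these data known. Genes were named by rule: with 1-gene probe sets, the brightest per gene, the 14 largest differences per direction whose arrays at 120 min did not overlap, the 10 largest per direction also apart from the 0 min arrays, up to 3 genes per list, or the largest where all overlapped, and every measured GA gene, not all of which are printed. Marker genes in the tissue check came from the cell type lists, and not all of them met this rule. Other named genes are said to be chosen after their values were seen. Alternatives were 2 pseudocounts, 2 filters, 2 normalizations, 2 variance models, the 4 arrays alone, a replicate block and leaving out each array.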

Additional observations from a re-analysis of the deposited data

How the results depend on the processing

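Limma called 0 probe sets between treated and untreated roots at 120 min under all 16 alternatives. The lowest adjusted p was 0.107, without treated replicate 2, where 1459 probe sets had an unadjusted p under 0.05, and 0.998 or above under the others. With the replicate number as a block, 0 were called (lowest adjusted p = 0.998), with 446 at an unadjusted p under 0.05, against 164 without the block. Same-numbered arrays deviated together (correlations of the replicate differences 0.34, 0.37 and 0.31 between the 3 pairs of groups), but 2 numbers share no stated batch. The 28 probe sets at least 2-fold apart without overlap became 167 with a pseudocount of 1, 1 with 64, 116 with no filter and 6 when the filter was set at the 60th percentile, and the range was 28 to 576 when single arrays were dropped. Unadjusted calls numbered 623 with no filter, 62 at the 60th percentile, 103 with array weights, 104 with the 4 arrays at 120 min alone and 205 without a variance trend. The array weights were equal within each group, so treated replicate 1 was not weighted below treated replicate 2. None of the log2 differences of tested genes named by rule changed sign under the alternatives that kept all the 4 arrays at 120 min. Of these, only the pseudocounts and the normalizations could change a difference. The filters, variance models, block and 0 min arrays leave it as it is. Named genes below the filter or outside the rule, such as SLY2 and accD, were not part of these checks. When single arrays were dropped, 20 values changed sign, in 14 of the genes checked. The ranges were -2.29 to 1.18 for GID1B, -0.81 to 0.29 for GID1A, -0.52 to 0.38 for SLY1, -0.22 to 0.19 for SEC, -0.38 to 0.16 for SPY, -0.40 to 0.29 for XERICO, -0.48 to 0.12 for MYC3, -0.17 to 0.65 for CYP71B6, -1.11 to 0.10 for RCA, -1.51 to 0.19 for ccb382, -0.042 to 0.91 for SWEET11, -1.26 to 0.29 for GTR2, -1.02 to 0.19 for LTI30 and -0.35 to 0.10 for ACLA-1. Of the medians of gene groups, 465 of 509 values under the alternatives with all arrays moved by less than the spread between the treated arrays. With an array dropped, 244 of 306 did. Both counts include settings that could not move a median, such as the variance models, the block and dropping a 0 min array.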
